A study of Mus musculus with 4 samples.

Results

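The KIT and CXCL12 signalling axes were followed in the embryonic mouse gonad through 5 genes, given by name and not by a threshold on a measured value: *Kit*, *Kitl*, *Cxcl12*, *Cxcr4* and *Ackr3*. They are 5 of the 21495 genes in the count table, and all 5 were found. The study profiled gonads with the attached mesonephros, the transient embryonic kidney, by single-cell RNA-seq in 4 samples, to see how loss of the *miR-17~92* microRNA cluster acts on sex determination. The XY control E11.5 sample came from embryos grown from the parental G4 line of mouse embryonic stem cells, an F1 hybrid of C57BL/6J and 129, by tetraploid aggregation, in which the embryo proper derives from the stem cells. The samples XY KO E11.5 and, later, XY KO E11.75 came from G4 cells in which CRISPR had removed *miR-17~92* from both alleles, so that every cell of the embryo lacked the cluster, and these embryos were made by the same method. The XX control E11.5 sample came from natural matings of C57BL/6J males with 129 females, carried no deletion and was not derived from stem cells. The labels give the strain of all 4 samples as C57BL/6 x 129S4/SvJae. Where 4 values follow each other without names, they are given for XY control first, then XY KO E11.5, then XY KO E11.75, then XX control. Each sample was a pool of several gonad pairs, and each group is 1 sample, so no difference below has a replicate check and no p-value is given. The paper made 2 technical replicates of each sample, called runs here, but only 1 of XY KO E11.75. Values of that sample therefore have no check between runs. Both KO samples are compared with the same XY control, so those comparisons are not independent. At E11.75 the deletion and the later stage cannot be told apart. In the XX control, sex cannot be told apart from natural mating in place of tetraploid aggregation. Its depth and cell filter, given below, differed as well and cannot be told apart from sex either.

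KIT is a receptor tyrosine kinase on germ cells, and KIT ligand, encoded by *Kitl* and also called stem cell factor, is made by the somatic cells around them as a membrane-bound or a shed protein. The pair is required for the survival, division and movement of primordial germ cells (PGCs), and also acts in blood stem cells, mast cells and melanoblasts. CXCL12 is a secreted chemokine that signals through CXCR4, a G protein-coupled receptor on migrating PGCs, on blood vessel endothelium and on blood cells. ACKR3, formerly CXCR7, binds CXCL12 without classical G protein signalling and takes it up from the surroundings, which shapes the gradient that CXCR4-bearing cells read. PGCs reach the genital ridges shortly before the stages sampled here.

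In the mm10 build and GENCODE annotation, *Kit* (ENSMUSG00000005672.12) lies at chr5:75574916-75656722, *Kitl* (ENSMUSG00000019966.18) at chr10:100015630-100100416, and *Cxcl12* (ENSMUSG00000061353.11) at chr6:117168535-117181367. *Ackr3* (ENSMUSG00000044337.5) is at chr1:90203980-90216751, and *Cxcr4* (ENSMUSG00000045382.6) is on the minus strand at chr1:128588199-128592293. None of the 5 overlaps another annotated gene on either strand. The longest annotated 3′ UTRs differ in length, with 5188 bases in *Cxcl12*, 4435 in *Kitl*, 2177 in *Kit*, 1842 in *Ackr3* and 644 in *Cxcr4*. Which 3′ ends were sequenced cannot be read from counts per gene.

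The deleted cluster encodes 6 microRNAs in 4 seed families, on chromosome 14. Their mature sequences are shown because any direct pairing with the 5 transcripts would run through the seed, bases 2 to 8, given in capitals. They are taken from RefSeq, build GRCm38.p6, and all 6 matched by name. The first pair below has the miR-17 seed, the next has the miR-18 seed, the following pair has the miR-19 seed and the last has the miR-92 seed.
mmu-miR-17-5p: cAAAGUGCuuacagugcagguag
mmu-miR-20a-5p: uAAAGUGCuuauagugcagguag
mmu-miR-18a-5p: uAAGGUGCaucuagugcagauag
mmu-miR-19a-3p: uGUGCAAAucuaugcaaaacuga
mmu-miR-19b-3p: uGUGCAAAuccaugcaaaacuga
mmu-miR-92a-3p: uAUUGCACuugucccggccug

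The longest annotated 3′ UTR of each gene was searched on its own strand for 8mer matches (seed plus an A opposite the first base of the microRNA), 7mer-m8 matches (seed alone) and 7mer-A1 matches (seed without its last base, plus that A). *Kit*, *Kitl* and *Cxcl12* each held 3 matches, *Ackr3* held 2 and *Cxcr4* held 0. The only 8mer lay in *Cxcl12*, for the miR-19 seed, and all 3 matches in *Kitl* were of the 7mer-A1 kind. Those 4 and the miR-17 match of *Kit* are printed with their flanks on the mm10 build, plus strand, the bases of the match in capitals.
Cxcl12, miR-19, chr6:117178725-117178732: gacttgcTTTGCACAgttttgc
Kitl, miR-17, chr10:100097011-100097017: aaatggaCACTTTAttctaat
Kitl, miR-92, chr10:100096831-100096837: tcgtgttTGCAATAgtataat
Kitl, miR-92, chr10:100097718-100097724: tcaggtcTGCAATAatgaagc
Kit, miR-17, chr5:75654706-75654712: gagcacaCACTTTAgtggccg

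Such matches are common in long 3′ UTRs. Of 17294 annotated 3′ UTRs, 43.3% held at least 1 match to the 4 families, and among those within 20% of the length of *Kitl* or of *Cxcl12* the shares were 87.6% and 91.1%. An 8mer for miR-19 was rarer, in 5.55% of all 3′ UTRs and in 13.4% of those near the length of *Cxcl12*. The matches are a description of these windows and say nothing of whether a site is used.

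The table held 52745 cells in 13 annotated cell types, 6 of them gonadal, with 3669 to 23527 cells and 37841392 to 105192238 unique molecular identifiers (UMIs, counted transcripts) per sample. The median cell held 3893 to 4763 UMIs in the 3 XY samples and 15509 in the XX control. The deepest cell held 27354 to 29875 UMIs in the XY samples and 154650 in the XX control. The paper kept XY cells under 30000 UMIs and filtered the female cells by cluster instead. Ratios of the XX control over the XY control therefore compare cells filtered in unlike ways. Of 52400 distinct barcodes, 285 occurred in more than 1 sample. The deleted microRNAs themselves were not measured. Their host transcript *Mir17hg* stood at 36.7 CPM (the UMIs of a gene over all UMIs of that type and sample, scaled to the same fixed total) in germ cells of the XY control, 110.0 for XY KO E11.5, 144 for XY KO E11.75 and 37.4 for the XX control. It was thus higher in both KO samples, and this 3′ count cannot check the deletion. The annotated germ cells numbered 556, 165, 152 and 84 in the same order of samples, and every one of them held at least 2 of 10 germ cell markers, as did 0.97% to 3.62% of mesonephros cells of the XY samples and 17.4% of those of the deeper XX control. The germ cell, Sertoli, endothelial and adrenosympathetic labels led their own marker lists in the XY control, whereas the pre-supporting marker list summed higher in supporting-like cells (SLCs) than in pre-supporting cells in the 3 XY samples. The XY KO E11.5 sample held 24 Sertoli cells and the XX control held 2, so neither enters a ratio.

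*Kitl* was highest in the supporting cells, which come to enclose the germ cells. In pre-supporting cells, the common precursors of Sertoli and granulosa cells, it stood at 729 CPM (95% Poisson interval 710 to 748) for the XY control, 354 (339 to 369) for XY KO E11.5, 1000.4 (972 to 1029.7) for XY KO E11.75 and 639 (620.2 to 658) for the XX control. All intervals here cover counting error only. The 4 intervals did not overlap, with XY KO E11.5 the lowest and XY KO E11.75 the highest. Sertoli cells, which arise from pre-supporting cells in XY gonads, held 429 CPM for the XY control and 795 for XY KO E11.75. The 24 Sertoli cells of XY KO E11.5 held 410 CPM (314 to 525) on 62 UMIs, an interval that overlapped that of its pre-supporting cells. SLCs, a supporting lineage of the rete region, held 203, 114, 308 and 160 CPM in the stated order. Endothelial cells held 158, 207, 327 and 107 CPM, below SLCs in the XY control and above them in XY KO E11.5, while adrenal cells lay above them in the XX control with 153 CPM. The coelomic epithelium, the surface layer of the gonad, held 85.5, 68.3, 244 and 81.1 CPM. Germ cells held 5.59 to 15.0 CPM, so the ligand was low in the cells with the highest level of its receptor.

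**Figure D1:**
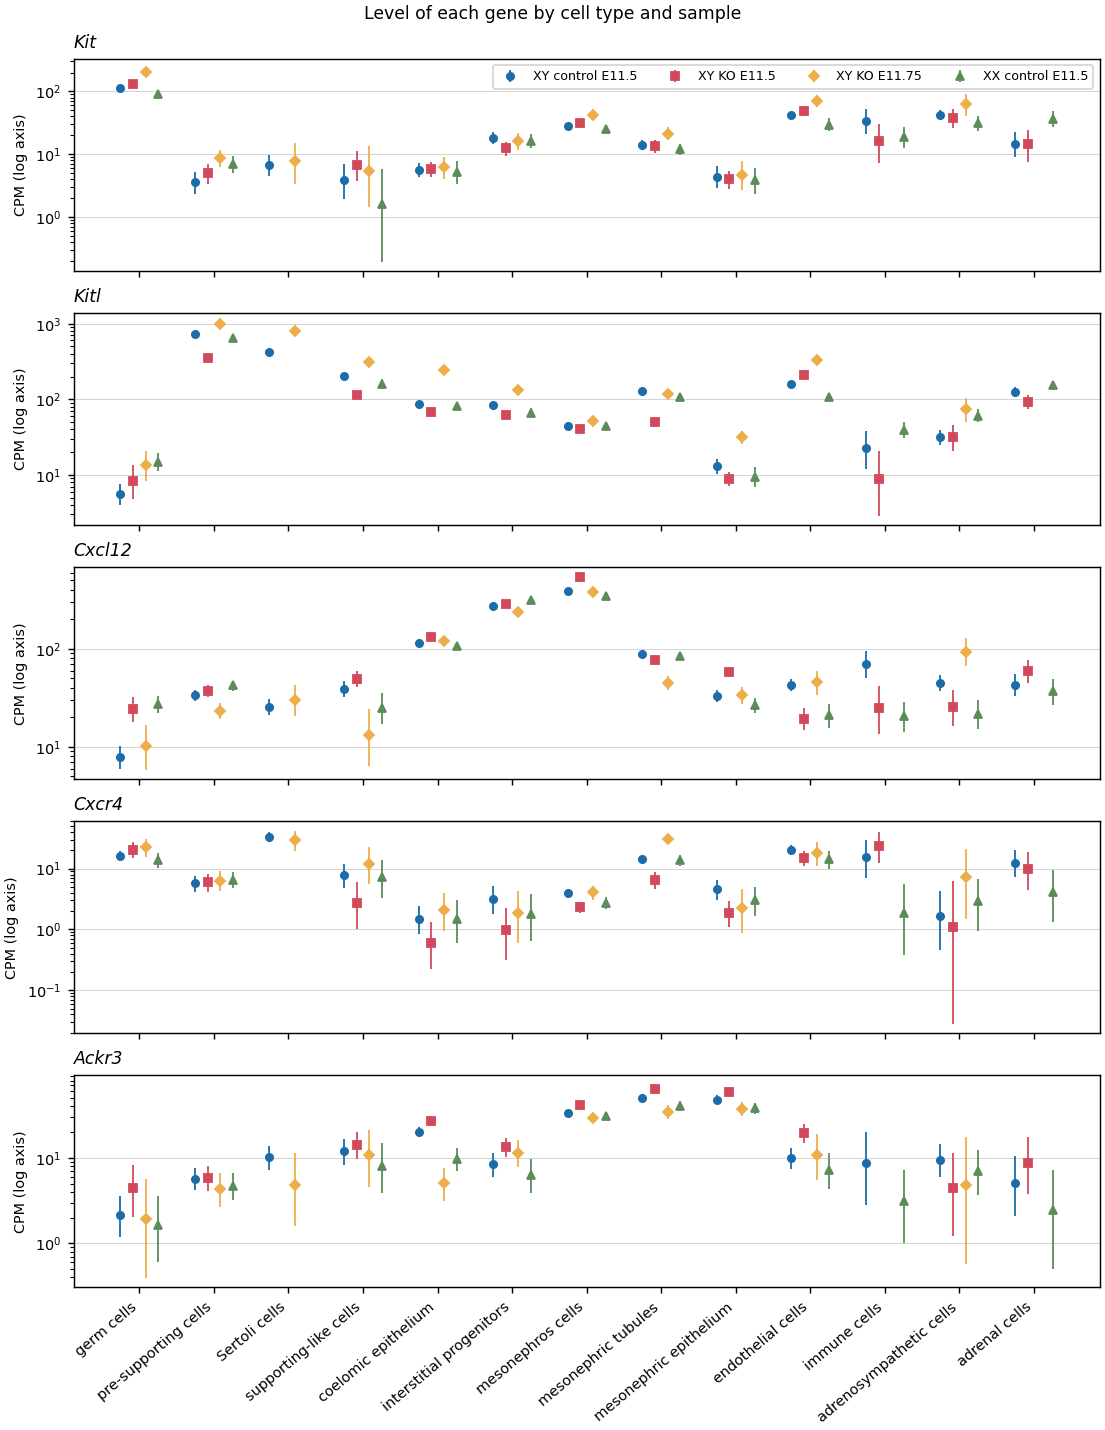
CPM (log axis) of each gene in each cell type with at least 50 cells, from UMIs summed per type and sample; points are the 4 samples and bars are exact 95% Poisson intervals for counting error. *Kitl* peaks in pre-supporting cells (354 to 1000.4 CPM) and *Kit* in germ cells (90.3 to 206 CPM), while *Cxcl12* peaks in mesonephros cells when the runs of a sample are pooled (343 to 535 CPM).

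Pre-supporting cells carried 42.0% of all *Kitl* UMIs for the XY control, 33.4% for XY KO E11.5, 52.4% for XY KO E11.75 and 54.3% for the XX control. Within the 6 gonadal types they carried 60.7%, 61.5%, 64.8% and 83.2%. Mesonephros cells came next in the XY control with 13.7% and reached 27.4% in XY KO E11.5, although their level there was 40.2 CPM against 43.8 in the control. These shares follow the number of cells captured as well as the level, and with every type weighted equally pre-supporting cells held 35.5% of the summed *Kitl* CPM of the XY control.

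**Figure D2:**
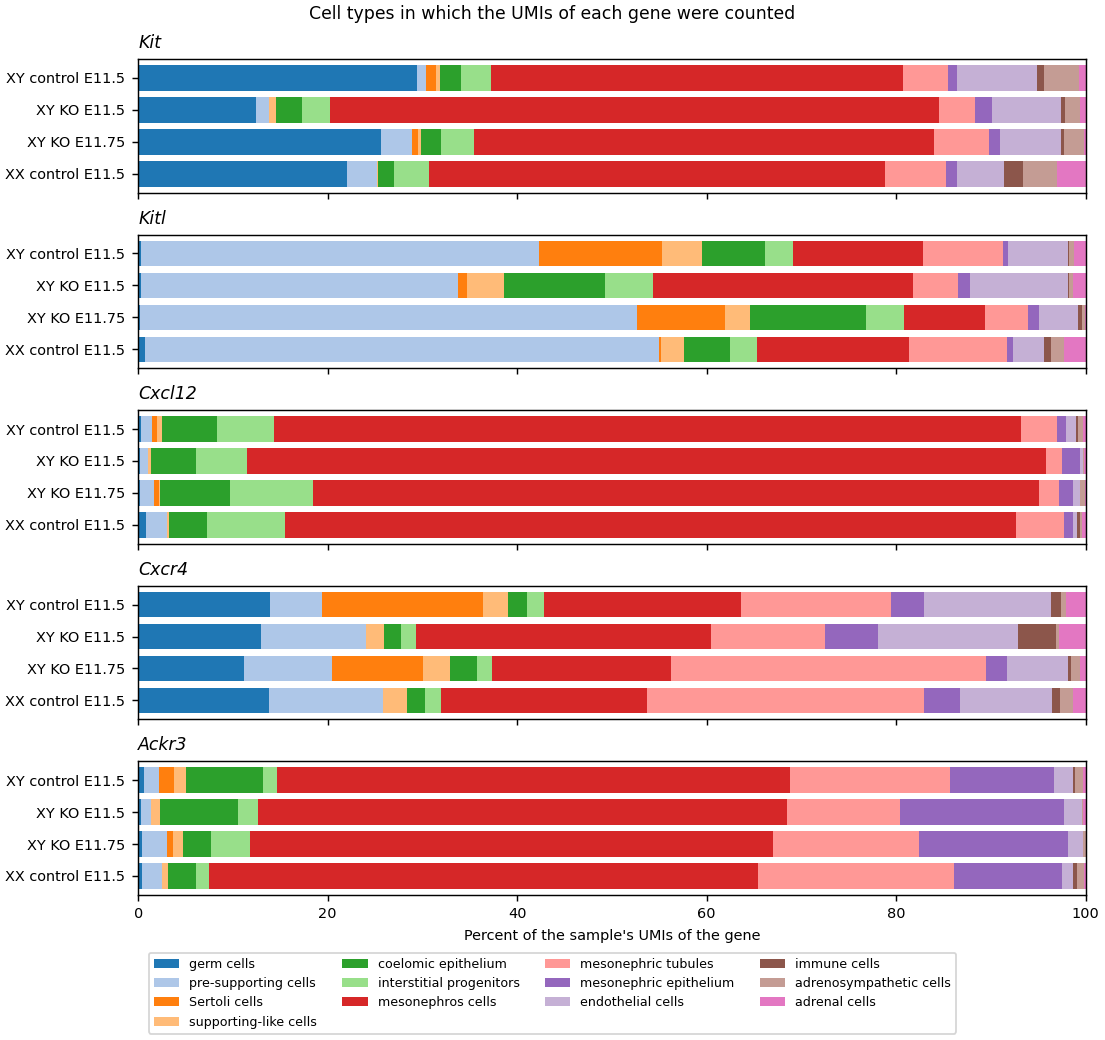
Percent of each sample's UMIs of a gene that were counted in each of 13 cell types, as stacked bars for the 4 samples. Mesonephros cells (red) held 76.6% to 84.3% of *Cxcl12* UMIs and germ cells (dark blue) 12.4% to 29.4% of *Kit* UMIs, while pre-supporting cells (light blue) held the largest share of *Kitl*.

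The share of pre-supporting cells with a *Kitl* UMI followed the level. After each cell was thinned to 3000 UMIs it was 80.5% (Clopper-Pearson interval 78.3 to 82.5) of 1468 cells for the XY control, 52.1% (49.0 to 55.2) of 1030 for XY KO E11.5, 86.6% (84.1 to 88.9) of 831 for XY KO E11.75 and 75.9% (71.1 to 80.3) of 349 for the XX control. Without thinning the shares were 86.5%, 67.1%, 93.4% and 96.3%, the last in cells with a median of 17498.5 UMIs against 4522 to 5349 in the XY samples. Immune cells, taken as the background, gave thinned shares of 3.92%, 3.13%, 19.4% and 8.96%, and the shares in pre-supporting cells stood far above these in all 4 samples. In XY KO E11.75 the immune share rested on 31 cells. Immune cells of that sample held 135 CPM of *Kitl* (92.0 to 192), above mesonephros cells at 51.3, so they cannot serve there as a floor without *Kitl*. The share is counted from the same UMIs as the level, so the lower share of XY KO E11.5 is no separate support for its lower *Kitl*.

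**Figure D3:**
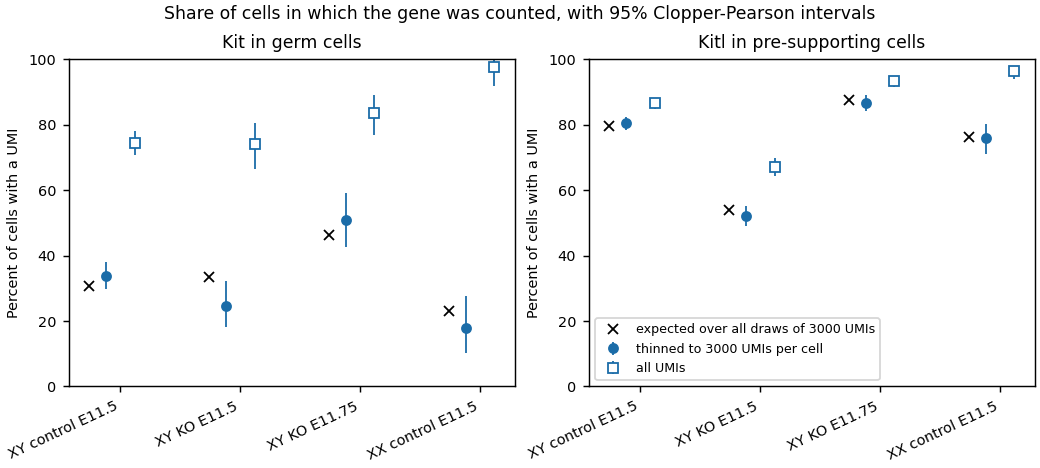
Percent of germ cells with a *Kit* UMI and of pre-supporting cells with a *Kitl* UMI in the 4 samples, after 1 random draw of 3000 UMIs per cell (filled circles), expected over all such draws (crosses) and from all UMIs (open squares), with 95% Clopper-Pearson intervals on circles and squares. *Kitl* was drawn in 52.1% of XY KO E11.5 pre-supporting cells against 75.9% to 86.6% in the other samples.

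Levels were compared between samples as a log2 ratio over the XY control within a cell type, relative to the median gene tested there. A gene was tested where the compared samples together held 100 UMIs or more, and a gene is said to be called where it lay at least 1.5-fold from that median gene. Of all gene and cell type pairs tested, 6.65% were called for XY KO E11.5, 20.8% for XY KO E11.75 and 8.76% for the XX control. Of the 5 genes, 11 of 38 such pairs were called for XY KO E11.5 (4 higher and 7 lower), 14 of 35 for XY KO E11.75 (9 higher and 5 lower) and 5 of 35 for the XX control (2 higher and 3 lower). The other pairs fell short of 100 UMIs or of 50 cells in a sample.

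*Kitl* was called lower for XY KO E11.5 in 3 of 10 types tested and higher in 0. In pre-supporting cells its log2 ratio was −0.95 (−1.02 to −0.88), in a type where 9.74% of genes were called, and in SLCs it was −0.74 (−0.97 to −0.53) against 5.2% called. Both runs of these 2 samples gave similar *Kitl* levels in pre-supporting cells, 734 and 722 CPM for the XY control, 361 and 348 for XY KO E11.5. Runs are technical replicates and no check across embryos. In coelomic epithelium the ratio was −0.22 and in interstitial progenitors −0.31, both short of a call, and in endothelial cells it was 0.43. The calls thus lay in pre-supporting cells, SLCs and mesonephric tubules, and the difference between these and the other types was not tested.

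*Kitl* in mesonephric tubules differed together with the makeup of that type. The merged type gave 127, 50.1, 118 and 106 CPM in the stated order, and XY KO E11.5 had a log2 ratio of −1.26 (−1.45 to −1.08) where 7.57% of genes were called. It joins 3 deposited clusters, of which Mesonephric tubules 1 held 80.3% of the tubule *Kitl* UMIs of the XY control. That cluster was 539 of 1721 tubule cells in the XY control (31.3%) but 44 of 920 in XY KO E11.5 (4.78%). Within it *Kitl* stood at 318 CPM (298 to 339) for the XY control and 237 (189.9 to 291) for XY KO E11.5, lower there as well. In Mesonephric tubules 2 the values were 30.9 (23.2 to 40.3) and 21.3 (14.1 to 30.7), on 54 and 28 UMIs, with overlapping intervals. In Mesonephric tubules 3 they were 39.4 and 42.7 CPM, a ratio of 0.19 (−0.12 to 0.49). The part of the makeup in the lower level was not tested.

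*Kitl* was called higher for XY KO E11.75 in 5 of 10 types and lower in 0. Coelomic epithelium gave a log2 ratio of 1.37 (1.246 to 1.503), with 17.9% of genes called, and Sertoli cells 0.75 (0.63 to 0.87), with 27% called. Mesonephric epithelium gave 1.13 (21.6% called), endothelial cells 0.90 (19.8% called) and adrenosympathetic cells 1.12 (27.7% called). Pre-supporting cells (0.27, with 23.2% called), SLCs (0.50, with 24.1% called) and mesonephros cells (0.08, with 20.5% called) were not called. Interstitial progenitors (84.0 CPM for the XY control, 133 for XY KO E11.75) and mesonephric tubules were not called either. Some alternatives, but not all, took interstitial progenitors past the limit, with 0.66 without centring and 1.10 in cells with at least 5000 UMIs. The same held for SLCs, with 0.61 without centring. Genes with 3′ UTRs about as long as that of *Kitl* were themselves shifted upwards in this sample, by 0.26 in pre-supporting cells, 0.22 in coelomic epithelium and Sertoli cells and 0.34 in adrenosympathetic cells. Against those genes *Kitl* in pre-supporting cells stood at 0.01, and the call in Sertoli cells was lost, at 0.53. Coelomic epithelium, mesonephric epithelium, endothelial cells and adrenosympathetic cells remained called against them.

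*Kitl* of the XX control in pre-supporting cells lay close to the XY control, at −0.08 (−0.14 to −0.03), where 8.08% of genes were called. It was called higher in 1 of 10 types, adrenosympathetic cells, at 1.05 (0.608 to 1.497), against 11.6% called. That value differed between the runs, which held 25.9 and 86.6 CPM, and the first runs of both samples gave 0.04.

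**Figure D4:**
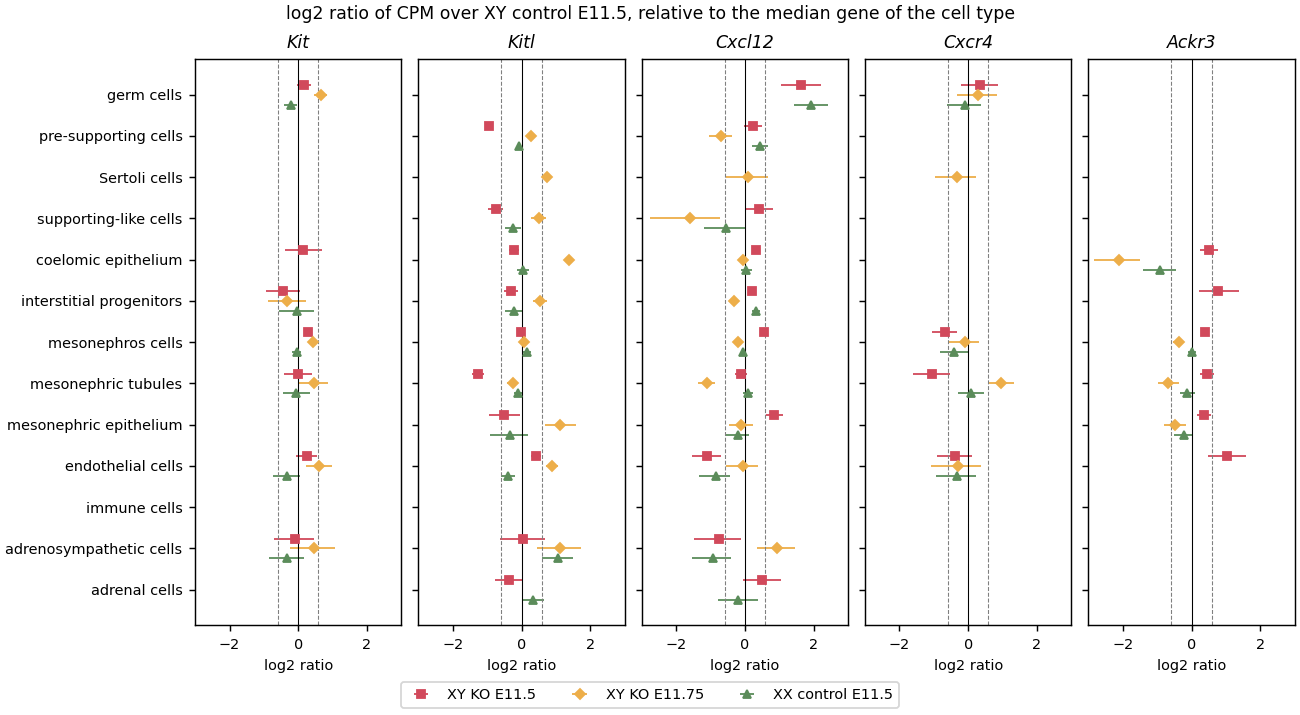
log2 ratio of CPM over XY control E11.5 in each cell type (vertical axis) for each gene (columns), relative to the median gene tested in that type, with 95% binomial intervals for counting error; dashed lines mark 1.5-fold. *Kitl* in pre-supporting cells lies at −0.95 in XY KO E11.5, and *Kit* in germ cells lies between −0.22 and 0.65 in the 3 comparisons.

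*Kit*, the receptor, was highest in germ cells in every sample. Germ cells held 115 CPM (108 to 124) for the XY control, 129.5 (114 to 146) for XY KO E11.5, 206 (184 to 229.9) for XY KO E11.75 and 90.3 (80.7 to 101) for the XX control. The interval of XY KO E11.75 overlapped none of the others, while the XY control and XY KO E11.5 overlapped. In the XY control, adrenosympathetic cells (42.3 CPM) and endothelial cells (41.9 CPM) came next with overlapping intervals, then immune cells (34.4) and mesonephros cells (27.9). Pre-supporting cells, the main ligand source, held 3.55 to 8.72 CPM of *Kit*. Ligand and receptor of this axis were thus highest in different cells of the same organ.

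Germ cells held 29.4% of the *Kit* UMIs of the XY control although they were 556 of its 23527 cells, and 78.9% of those of the gonadal types. Both shares were lower elsewhere, with 12.4% and 61.2% for XY KO E11.5, 25.7% and 72.5% for XY KO E11.75, and 22.0% and 71.7% for the XX control. They follow the number of cells captured as well as the level. In XY KO E11.5, germ cells were 165 of 17057 cells. Mesonephros cells, the most numerous type, gave more *Kit* UMIs than any other type in every sample, with 43.5% to 64.3%. Germ cell markers were also counted in mesonephros cells, and at the ratio of *Kit* to these markers in germ cells they correspond to 73.5 *Kit* UMIs in the XY control, where 1193 were counted. In the other samples they correspond to 21.02 to 29.5 UMIs, where 608 to 1374 were counted.

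The *Kit* transcripts of the mesonephros were unevenly spread over its 4 deposited clusters. Mesonephros 3, the cluster highest in *Cxcl12*, held 55.8, 63.9, 91.4 and 57.0 CPM of *Kit* in the stated order. Mesonephros 4 held 70.1, 43.9, 155 and 45.9 CPM, and Mesonephros 1 no more than 9.71. In Mesonephros 4 *Kit* was thus lower than the XY control for XY KO E11.5 and for the XX control, with log2 ratios of −0.59 (−0.91 to −0.28) and −0.55 (−1.04 to −0.10), and higher in XY KO E11.75, with 1.05 (0.74 to 1.36). That cluster summed 536 to 830 CPM of the nephric tubule marker list, against 35.2 to 42.8 CPM in Mesonephros 3.

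*Kit* in germ cells was not called in XY KO E11.5, at a log2 ratio of 0.18 (−0.03 to 0.38), where 4.35% of genes were called. It was called higher in XY KO E11.75, at 0.65 (0.46 to 0.84), in a comparison where 18.3% of genes in germ cells were called. By direction, 8.22% of genes were called higher there and 10.1% lower, against 2.29% and 2.05% in XY KO E11.5. This call lies near the limit and was lost under 3 alternatives, with TMM scaling (0.56), a prior count of 5 (0.58) or centring on genes of like 3′ UTR length (0.55). In the XX control the ratio was −0.22 (−0.41 to −0.04), not called, where 6.69% of genes were called, 2.94% higher and 3.75% lower. Among the merged types other than germ cells, *Kit* was called only in endothelial cells of XY KO E11.75, at 0.62 (0.22 to 0.98), and that call was lost under 4 alternatives.

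After 1 draw of 3000 UMIs per cell, 33.8% of germ cells of the XY control held a *Kit* UMI, with 24.7% for XY KO E11.5, 51.0% for XY KO E11.75 and 17.9% for the XX control. The expected share over all draws was 30.8%, 33.3%, 46.4% and 23.2%, so the draw placed XY KO E11.5 below the XY control and the expectation did not. No order of these 2 samples is read from the shares, and 7 cells of XY KO E11.5 and 1 of XY KO E11.75 were too shallow to be drawn. Mesonephric tubules, taken as the background for *Kit*, gave 3.14% to 5.54%, but they cannot serve as a floor without *Kit*. In the XY control they held 128 *Kit* UMIs, where germ cell markers correspond to 12.5. Their level there was 14.1 CPM, against 3.55 in pre-supporting cells. Without thinning the germ cell shares were 74.5%, 73.9%, 83.6% and 97.6%, at median depths of 11990.5, 12156, 9279.5 and 40644 UMIs.

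*Cxcl12* was highest outside the gonad. Mesonephros cells held 392 CPM (386 to 398) for the XY control, 535 (528 to 542) for XY KO E11.5, 379 (369 to 389) for XY KO E11.75 and 343 (336 to 349) for the XX control. They carried 78.8%, 84.3%, 76.6% and 77.1% of all *Cxcl12* UMIs, shares that follow the number of cells captured, and with every type weighted equally 32.5%, 40.3%, 36.8% and 32.0% of the summed CPM. The highest gonadal type was the interstitial progenitors, precursors of steroid-producing and stromal cells, with 271, 287, 235 and 314 CPM. In the first run of the XX control they stood above mesonephros cells, at 364 CPM against 322. Coelomic epithelium held 108 to 132 CPM, and pre-supporting cells, the main source of *Kitl*, held 23.3 to 42.3. The highest sources of the KIT ligand and of the chemokine were therefore different cell types, one inside the gonad and the other beside it.

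Within the mesonephros, *Cxcl12* was concentrated in Mesonephros 3. That cluster was 24.1% of the mesonephros cells of the XY control and held 62.3% of their *Cxcl12* UMIs, at 1061 CPM. It held 1164.2 CPM for XY KO E11.5, 1149.2 for XY KO E11.75 and 906 for the XX control. Mesonephros 2 held 308, 426, 327 and 253.5 CPM in the stated order, Mesonephros 1 62.0 to 114, and Mesonephros 4 26.1 to 44.1. The same order of the first 3 clusters was seen in all samples.

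**Figure D5:**
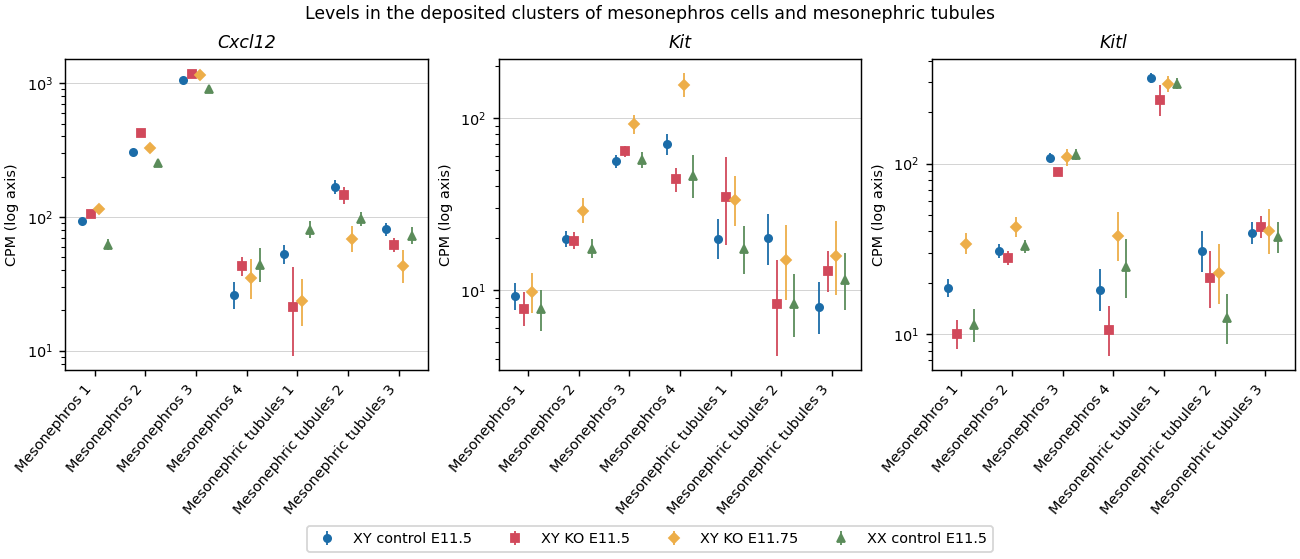
CPM (log axis) of *Cxcl12*, *Kit* and *Kitl* in the deposited clusters of mesonephros cells and mesonephric tubules in the 4 samples, with exact 95% Poisson intervals. *Cxcl12* lies between 906 and 1164.2 CPM in Mesonephros 3 and *Kitl* between 237 and 318 CPM in Mesonephric tubules 1, the cluster that held 44 cells in XY KO E11.5.

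*Cxcl12* in mesonephros cells of XY KO E11.5 gave a log2 ratio of 0.55 (0.52 to 0.57), short of a call, where 5.98% of genes were called. The share of Mesonephros 3 cells was 31.8% in that sample against 24.1% in the XY control. Within the clusters the ratios were 0.24 in Mesonephros 1, 0.56 in Mesonephros 2, 0.22 in Mesonephros 3 and 0.79 in Mesonephros 4. In XY KO E11.75 the ratio was −0.20 and the share of Mesonephros 3 was 17.4%, with within-cluster ratios of −0.05 to 0.33. In the XX control, with 7.57% of genes called, it was −0.07. No comparison of all mesonephros cells was called, but that of XY KO E11.5 passed the limit as the mean over cells (0.61) and against genes of like 3′ UTR length (0.59).

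Smaller sources of *Cxcl12* were called in both directions. In XY KO E11.5 mesonephric epithelium was higher, from 33.2 to 57.5 CPM, with a log2 ratio of 0.86 (0.63 to 1.10) against 4.83% of genes called. Endothelial cells were lower, from 42.9 to 19.3 CPM, with −1.11 (−1.54 to −0.71) against 5.7% called. Adrenosympathetic cells were lower as well, with −0.74 (−1.48 to −0.11) against 7.48% called, on 23 and 109 UMIs, and the first runs of both samples gave −0.31. The mesenchyme markers summed to 129.8 CPM in endothelial cells of the XY control and 76.7 in those of XY KO E11.5, lower in the same direction as *Cxcl12*, and their part in the result was not tested.

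*Cxcl12* of XY KO E11.75 was called lower in pre-supporting cells, at −0.71 (−1.05 to −0.38, lost under 3 alternatives), in SLCs, at −1.60 (−2.76 to −0.73) on 10 UMIs, and in mesonephric tubules, at −1.11 (−1.37 to −0.86), where 14.3% of genes were called. The tubule difference was present in each of the 3 tubule clusters, with ratios of −1.25, −1.41 and −1.03. Adrenosympathetic cells were called higher, at 0.93 (0.35 to 1.46), on 39 UMIs in 68 cells, and the mean over cells gave −0.76. Endothelial cells of the XX control were called lower, at −0.86 (−1.33 to −0.43) against 8.18% called, and adrenosympathetic cells lower, at −0.94 (−1.53 to −0.40). In the last type the first runs of both samples gave 0.05.

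*Cxcl12* was also called in germ cells, from few UMIs. Germ cells held 7.88 CPM for the XY control (55 UMIs), 24.4 for XY KO E11.5 (50 UMIs), 10.3 for XY KO E11.75 (16 UMIs) and 27.4 for the XX control (99 UMIs). These gave log2 ratios of 1.65 (1.06 to 2.22) for XY KO E11.5 and 1.92 (1.44 to 2.43) for the XX control. These counts came from few cells. In XY KO E11.5, 20 of 165 germ cells held a *Cxcl12* UMI and 1 cell held 14 of the 50. In the XX control 17 of 84 held one and 1 cell held 35 of the 99, the runs gave 8.55 and 50.5 CPM, and cells under 30000 UMIs gave a ratio of 0.53. Germ cells with *Cxcl12* summed 218 CPM of mesenchyme markers for XY KO E11.5 and 142 for the XX control, against 59.0 and 17.9 in germ cells without it. The part of RNA from other cells in this result was not tested.

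*Cxcr4*, the signalling receptor for CXCL12, was low in all types. Germ cells held 16.3 CPM (13.5 to 19.6) for the XY control, 20.5 (14.8 to 27.8) for XY KO E11.5, 22.5 (15.7 to 31.2) for XY KO E11.75 and 13.8 (10.3 to 18.3) for the XX control. All 4 intervals overlapped, and the ratios were 0.35 (−0.21 to 0.86), 0.29 (−0.32 to 0.83) and −0.10 (−0.62 to 0.38), with no call, although the first runs alone gave 0.69 for XY KO E11.5. In the XY control Sertoli cells stood above germ cells with intervals apart, and in the other samples the types listed above germ cells overlapped them. Sertoli cells held 33.5 CPM (28.1 to 39.5) in the XY control and 29.2 (19.7 to 41.7) in XY KO E11.75, where mesonephric tubules (30.7 CPM) were the highest type. The 24 Sertoli cells of XY KO E11.5 held 0 UMIs, which allows up to 24.4 CPM at the upper bound of the interval. Endothelial cells held 14.2 to 20.1 CPM and mesonephros cells 2.32 to 4.07.

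*Cxcr4* was called in mesonephric tubules in opposite directions in the KO samples. Mesonephric tubules held 14.4 CPM for the XY control, 6.49 for XY KO E11.5, 30.7 for XY KO E11.75 and 13.6 for the XX control. These gave log2 ratios of −1.05 (−1.62 to −0.54) for XY KO E11.5 and 0.96 (0.57 to 1.34) for XY KO E11.75. Mesonephric tubules 1, the cluster that was small in XY KO E11.5, held 53.1% of the tubule *Cxcr4* UMIs of the XY control and 60.4% of those of the XX control. Its levels were 23.7, 10.6, 35.1 and 27.1 CPM, the second on 4 UMIs, and the call of XY KO E11.75 was lost within it, at 0.48 (−0.13 to 1.06). In Mesonephric tubules 2 *Cxcr4* stood at 14.3, 13.7, 50.2 and 11.78 CPM in the stated order, close to the XY control for XY KO E11.5 and higher for XY KO E11.75. In Mesonephric tubules 3 it stood at 8.20, 3.94, 7.04 and 3.15 CPM. There XY KO E11.5 was lower than the XY control, on 17 against 36 UMIs, too few for a ratio. Its interval (2.30 to 6.31) overlapped that of the XY control (5.74 to 11.35) only at the ends, which does not show equal levels. The interval of XY KO E11.75, on 8 UMIs, overlapped that of the XY control as well. In mesonephros cells of XY KO E11.5 it was called lower, at −0.68 (−1.05 to −0.32), with −0.49 in the second runs, and 40.6% of those UMIs came from Mesonephros 4, where the log2 ratio was −0.92 from 23.6 CPM in the XY control.

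*Ackr3*, the CXCL12 scavenger, was highest in mesonephric types. Mesonephric tubules held 49.9, 64.3, 34.6 and 40.8 CPM in the stated order, and mesonephric epithelium held 47.7, 58.2, 37.6 and 38.0. In each sample the intervals of these types overlapped. Mesonephros cells held 33.8, 41.5, 28.9 and 31.1 CPM and 54.1% to 58.0% of all *Ackr3* UMIs. Germ cells held 1.66 to 4.40 CPM, on 3 to 15 UMIs. Across the 48 profiles of cell type and sample, *Ackr3* and *Cxcl12* gave Pearson's r of 0.41 on log2(CPM + 10), and *Cxcr4* and *Cxcl12* −0.49. These profiles share libraries and are not independent, so the values are a description.

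In coelomic epithelium *Ackr3* stood at 19.9 CPM for the XY control, 26.6 for XY KO E11.5, 5.03 for XY KO E11.75 and 9.67 for the XX control. It was called lower in XY KO E11.75, at −2.10 (−2.83 to −1.49), and in the XX control, at −0.91 (−1.41 to −0.46), where 8.16% of genes were called. In XY KO E11.5 the ratio was 0.52 (0.25 to 0.79), not called. *Ackr3* was called higher in that sample in interstitial progenitors, at 0.78 (0.21 to 1.39) against 6.15% called, and in endothelial cells, at 1.03 (0.48 to 1.58). The first runs alone gave 0.36 in interstitial progenitors. In mesonephric tubules of XY KO E11.75 it was called lower, at −0.67 (−0.98 to −0.38), a call lost under 4 alternatives, with 0.05 in Mesonephric tubules 1 and −1.70 in Mesonephric tubules 3.

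*Kit* and *Cxcr4* were seldom counted in the same germ cell at this depth. After thinning, 177 of 556 germ cells of the XY control held *Kit* alone, 15 *Cxcr4* alone, 11 both and 353 neither. Both were counted in 1.98% (0.99 to 3.51), and the product of the single shares is 1.58%. In the other 3 samples, in the stated order, the shares with both were 0.63%, 3.31% and 2.38%, against products of 1.41%, 3.72% and 0.85%. In each sample the product lay inside the interval of the share, so no departure from independent counting was detectable at this depth.

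In some mesonephros cells the chemokine and its scavenger were counted together. Of 7549 thinned cells of the XY control, 344 held both *Cxcl12* and *Ackr3*, or 4.56% (4.10 to 5.05), against a product of 3.30%. For *Kit* and *Cxcl12* the share with both was 4.45% (4.00 to 4.94) against 2.93%, and for *Kit* and *Kitl* 1.60% (1.33 to 1.91) against 0.73%. These 3 pairs lay above the product in these cells, which differ between clusters in their levels of each gene. Pairs with *Cxcr4* did not in these cells, as the product lay inside the interval. *Kit* and *Cxcr4* gave 0.13% (0.06 to 0.24) against 0.09%, and *Cxcr4* and *Ackr3* 0.05% (0.01 to 0.14) against 0.10%. Endothelial cells of XY KO E11.5 held *Cxcr4* and *Ackr3* together in 6 of 276, or 2.17% (0.80 to 4.67), against a product of 0.26%. For endothelial cells of the other samples the product lay inside the interval, as in the XY control with 0.33% (0.04 to 1.18) against 0.12%.

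Downstream genes in germ cells were described by 3 lists. Of 50 genes of KIT signalling, 37 were tested in XY KO E11.5, with 0 called higher and 0 lower, against 2.29% and 2.05% of all genes, and a median log2 ratio of 0.01. The highest were *Sos1*, a guanine exchange factor for RAS (0.46, from 29.1 to 39.6 CPM), and *Pik3cb*, a catalytic subunit of PI3 kinase (0.41). The lowest were *Akt2*, a kinase downstream of PI3 kinase (−0.53, from 31.0 to 21.02 CPM), and *Nras*, a RAS family GTPase (−0.47). Of 36 tested for XY KO E11.75, 4 were called higher and 1 lower, with a median of 0.00, where 8.22% of all genes were called higher and 10.1% lower. *Sos1* was among the genes called higher, at 0.79 (0.41 to 1.15). For the XX control 0 of 37 were called higher and 4 lower, against 2.94% and 3.75% of all genes, with a median of −0.18.

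Of 40 genes of CXCL12 receptor signalling, 27 were tested in XY KO E11.5, with 0 called higher and 0 lower, against 2.29% and 2.05% of all genes, and a median of −0.06. The highest were *Gng12*, a G protein gamma subunit (0.28), and *Limk1*, a kinase that acts on actin turnover through cofilin (0.27), and the lowest were *Grk2*, a kinase that desensitizes G protein-coupled receptors (−0.33), and *Ptk2*, focal adhesion kinase (−0.26). *Gng12* was the 1 gene called in XY KO E11.75 (0 higher and 1 lower of 27, against 8.22% and 10.1% of all genes), from 79.4 to 40.4 CPM at −1.15 (−1.56 to −0.78). Of 28 tested for the XX control, 1 was called higher and 1 lower, against 2.94% and 3.75% of all genes. *Gng12* was called higher, at 0.68 (0.50 to 0.87), and *Limk1* lower, at −0.65.

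Of 30 other genes of germ cell migration, 21 were tested in XY KO E11.5, with 1 called higher and 0 lower, against 2.29% and 2.05% of all genes, and a median of 0.30. The called gene was *Col1a1*, a collagen of mesenchyme, from 17.3 to 29.8 CPM at 0.80 (0.33 to 1.25), and the mesenchyme markers in germ cells summed to 58.5 CPM for the XY control and 79.7 for XY KO E11.5. *Fgfr1*, a fibroblast growth factor receptor, was among the lowest (−0.04). Of 21 tested for XY KO E11.75, 5 were called higher and 2 lower, against 8.22% and 10.1% of all genes, with a median of 0.40. For the XX control 0 were called higher and 2 lower of 21, against 2.94% and 3.75%, with a median of −0.03.

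The genes whose profile over the 48 combinations of type and sample was most like each member were named by Pearson's r of log2(CPM + 10), among 14902 genes. For *Kit* they were *Foxn2* (0.87), *Lypla1* (0.84) and *Fam3c* (0.83), all highest in germ cells of the XY control. For *Kitl* they were *Numb* (0.92), *Ccnjl* (0.88) and *Vsig10* (0.88). For *Cxcl12* they were *Egfr*, *Tcf21* and *Tgm5* (0.87, 0.86 and 0.86), for *Ackr3* *Ntm*, *Galnt14* and *Prom1* (0.86, 0.85 and 0.83), and for *Cxcr4* *Pip5k1b*, *Mfsd13a* and *Znfx1* (0.76, 0.74 and 0.72). By Spearman's rho of CPM, 2 of the 3 genes remained for *Kit* and for *Kitl*, 1 for *Cxcr4* and 0 for *Cxcl12* and *Ackr3*.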

How the data were processed

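Gonads with mesonephros were profiled with a 10x Genomics 3′ kit after methanol fixation. Per the labels, the authors aligned reads with Cell Ranger 6.1.1 to mm10 and deposited raw UMI counts per gene and cell, with their cell type annotation and the percent of mitochondrial UMIs per cell. Doublets had been removed by the authors and none were removed here. Counts were summed per deposited type and sample, all runs together, and scaled to CPM. Levels are compared within a gene and not between genes. The 3′ counts do not follow transcript length, and they cannot separate the isoforms of *Kitl*.

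Poisson intervals, Clopper-Pearson intervals for shares and binomial intervals for ratios (prior count 0.5) are 95%, cover counting error only, and treat PCR copies as removed by the UMIs. A ratio needed 50 cells in both samples. Every group holds 1 sample, so no test across samples was possible. Python 3.11.15, numpy 2.4.6, scipy 1.17.1, pandas 2.3.3 and matplotlib 3.10.9 were used, with edgeR 4.0.16 in R 4.3.3 for TMM factors only. The computation of the ratios, and not any difference between samples, was checked on simulated counts with known fold changes. Alternatives covered scaling, the minimum UMIs, the prior count, single runs, cell filters, merged types and 3′ UTR length.

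The members and gene lists were chosen with earlier results of these data known. Named genes were the 5 members, the 3 genes most like each, and the 2 highest and 2 lowest of each pathway list in germ cells of XY KO E11.5. Some genes that this rule names are not reported here. *Mir17hg* was named outside that rule, after its values were seen.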

Additional observations from a re-analysis of the deposited data

Results flagged for a closer look

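All values here are log2 ratios over the XY control relative to the median gene, each pair points in opposite directions, each comparison is 1 sample against 1 sample, and none of the differences was tested. In XY KO E11.5, *Cxcl12* stood at 1.65 in germ cells and −1.11 in endothelial cells. In XY KO E11.75 it stood at 0.93 in adrenosympathetic cells and −1.60 in SLCs, and in the XX control at 1.92 in germ cells and −0.94 in adrenosympathetic cells. Between the KO samples, *Cxcl12* in adrenosympathetic cells stood at −0.74 at E11.5 and 0.93 at E11.75. The first was −0.27 in cells with at least 5000 UMIs and −0.31 in the first runs, both short of a call, and the second turned to −0.76 as the mean over cells. *Cxcr4* in mesonephric tubules stood at −1.05 at E11.5 and 0.96 at E11.75, the latter 0.48 within Mesonephric tubules 1.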

How the results depend on the processing

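All values are log2 ratios over the XY control relative to the median gene unless another unit is given. Of 30 calls, 16 kept their direction and stayed at least 1.5-fold under every alternative run and 14 were lost under at least 1, and where no value shows the cause it was not tested. Of 78 ratios that were not called, 36 passed the limit under at least 1 alternative, among them *Cxcl12* in mesonephros cells of XY KO E11.5 under 3. Among the 30 calls direction turned in 4 cases, and ratios that were not called also changed sign under some alternatives. The 4 were *Kitl* in mesonephric tubules of XY KO E11.5 (0.19 within Mesonephric tubules 3), *Ackr3* in mesonephric tubules of XY KO E11.75 (0.045 within Mesonephric tubules 1), *Cxcl12* in adrenosympathetic cells of XY KO E11.75 (−0.76 as the mean over cells) and of the XX control (0.047 in the first runs). The values within clusters, without centring, over all draws and from cells under 30000 UMIs were chosen after seeing the data.

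*Kit* in germ cells stood at 0.40 in the second runs of XY KO E11.5, and at 0.84 in XY KO E11.75 both without centring and with a minimum of 500 UMIs. For XY KO E11.5, *Kitl* in pre-supporting cells stood at −1.04 without centring, −0.88 in cells with at least 5000 UMIs and −0.72 when merged with Sertoli cells. For XY KO E11.75 it stood at 0.46 without centring and also without mitochondrial, ribosomal protein and globin genes, 0.36 in cells with at least 5000 UMIs, 0.013 against genes of like 3′ UTR length, 0.38 with a minimum of 500 UMIs and 0.44 when merged. For the XX control these were −0.19 without centring, −0.16 without those genes, 0.00431 by 3′ UTR length and 0.15 merged, with 0.022 in cells under 30000 UMIs.

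*Cxcl12* in mesonephros cells of XY KO E11.5 stood at 0.45 without centring, 0.48 without those genes, 0.61 as the mean over cells, 0.50 in cells with at least 5000 UMIs and 0.59 by 3′ UTR length, and within Mesonephros 1, 3 and 4 at 0.24, 0.22 and 0.79. For XY KO E11.75 it stood at −0.049, −0.068, −0.35, 0.19 and −0.42 in the same order, at −0.24 with the second run of the XY control, and within Mesonephros 1 to 4 at 0.15, −0.0485, −0.027 and 0.33. For the XX control it stood at −0.19, −0.18, 0.00842, 0.000604 and 0.059, at 0.00441 in cells under 30000 UMIs, at −0.11 in the first runs, and within Mesonephros 1 to 4 at −0.48, −0.16, −0.12 and 0.81. *Ackr3* in mesonephric tubules stood at 0.70 within Mesonephric tubules 2 of XY KO E11.5, at 0.045 and −1.70 within Mesonephric tubules 1 and 3 of XY KO E11.75, and for the XX control at 0.45 in cells with at least 5000 UMIs, 0.25 in cells under 30000 UMIs and −0.43 within Mesonephric tubules 3.

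With a limit of 2-fold the calls numbered 5 for XY KO E11.5, 6 for XY KO E11.75 and 2 for the XX control. With every type weighted equally, pre-supporting cells held 35.5%, 32.3% and 43.2% of *Kitl* for the XY control, for XY KO E11.75 and for the XX control, and mesonephros cells held 32.5%, 40.3%, 36.8% and 32.0% of *Cxcl12* in the 4 samples. Requiring at least 2 germ cell markers left every germ cell in. No paired analysis was possible because each group is 1 sample. Members with few UMIs, such as *Cxcr4* and *Ackr3* in germ cells, are limited by depth, and the intervals cover counting error alone.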
